A study of Mus musculus with 10 samples.

Results

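The cells described here are mesenchymal cells of the E11.5 mouse mandible that carried both *Msx1* and *Alx1* transcripts and neither *Barx1* nor *Cited1* transcripts. Of the 8708 barcodes in the E11.5 count matrix, 6573 had at least 700 detected genes and at most 20% mitochondrial UMIs (unique molecular identifiers, each standing for one captured transcript). A mesenchymal gate then kept the 5364 cells with a UMI of at least 2 of *Prrx1*, *Twist1*, *Pdgfra* and *Col3a1*, and of at most 1 of *Cdh5*, *Kdr*, *Tyrobp*, *Fcer1g*, *Tnnt1* and *Epcam*. Within the gate, 172 cells had at least 1 UMI of *Msx1* and of *Alx1* with *Barx1* and *Cited1* at 0, which is 3.21% of the gated cells (exact binomial 95% interval 2.75 to 3.71). They are called Msx1 Alx1 cells below, and the remaining 5192 gated cells are the comparison.

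The study profiled wild-type embryos of the outbred NMRI mouse strain by droplet single-cell RNA sequencing (10x Genomics 3' chemistry), with whole mandibles at E11.5 and lower incisor germs at E14.5 and E16.5. All embryos were untreated, and the labels list 4 samples for the earliest stage, 4 for the middle one and 2 for the latest, each with the tissue name developing incisor although the E11.5 tissue was the whole mandible. The study's methods give more E11.5 mandibles than the labels list samples, so the number of embryos behind that matrix is uncertain. Barcodes of a stage could not be assigned to samples, so the E11.5 matrix was treated as 1 sample and no p-value was computed. The intervals below are 95% intervals that cover counting error only, and the spread between embryos is unknown. The Msx1 Alx1 cells held 1582656 UMIs in all, with a median of 6997 per cell and a range of 1732 to 38834, and the other mesenchymal cells had a median of 6174.

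The mesenchyme of the mandibular arch derives mostly from cranial neural crest and is patterned along a distal to proximal axis, with the future chin and incisor region at the distal end. *Msx1* encodes a homeobox repressor induced by BMP signalling in distal and tooth-forming mesenchyme, and *Alx1* encodes a homeobox factor needed for frontonasal and midline facial structures. *Barx1* marks the proximal, molar-forming mesenchyme, and *Cited1* encodes a transcriptional co-regulator. Position in the tissue was not measured, and distal or proximal here refers only to what the named genes are known for.

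Because the cells were selected on *Msx1* and *Alx1*, the levels of both are a description. *Msx1* UMIs ranged from 1 to 34 per cell with a median of 5, and *Alx1* UMIs from 1 to 9 with a median of 1.5. For *Alx1*, 86 cells held a single UMI, 40 held 2 and 46 held 3 or more, so membership of 86 cells rested on 1 molecule. The gate held 2427 cells with *Msx1* and 664 with *Alx1*, and 507 of them had both. Among these 507 cells, 335 were set aside by the rule, 202 for *Cited1* alone, 40 for *Barx1* alone and 93 for both.

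Detection of these genes depends on depth, so co-detection was also counted after cells were thinned to 2000 UMIs, which left out 1 Msx1 Alx1 cell and 391 other mesenchymal cells below that depth here and in the thinned shares that follow. At that depth *Alx1* was seen in 9.87% (8.29 to 11.6) of cells with *Msx1* and in 3.45% (2.88 to 4.09) of cells without it. It was seen in 1.76% (1.21 to 2.46) of cells with *Barx1* and in 7.14% (6.26 to 8.11) of cells without it. For *Cited1* the order was the other way, with *Alx1* in 6.97% (5.43 to 8.78) of cells with *Cited1* and in 4.67% (4.04 to 5.37) of cells without it. *Alx1* was therefore detected less often beside *Barx1* and more often beside *Msx1* and *Cited1*.

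Absence of a UMI is weak evidence of absence of a transcript. When the rule was applied to a random part of each cell's UMIs and levels were read in the UMIs held out, 139 cells were chosen and their held-out *Barx1* level was 20.6 CPM (counts of a gene scaled to a common total of UMIs) against 373 CPM in the other cells. *Cited1* was 68.2 CPM (51.1 to 89.2) against 123 CPM, and a held-out *Cited1* UMI was found in 30.2% of the chosen cells and in 24.9% of the others. In the same held-out UMIs *Hand1* was 96.5 CPM (75.9 to 121) against 17.1 CPM. The cells were thus lower than the others in *Barx1* and, to a smaller degree, in *Cited1* beyond the UMIs that chose them. Transcripts of both were present in part of them, with a held-out *Barx1* UMI in 9.35% of the chosen cells and 49.0% of the others.

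UMIs were summed over each class of cells and scaled to CPM, and differences are log2 ratios after 10 CPM was added to each level, which understates the change of low genes. A gene was ranked if it had a UMI in at least 5% of either class and at least 50 counts, and was called higher or lower at 1.5-fold on that scale. Of 9204 ranked genes, 164 were called higher in the Msx1 Alx1 cells than in the other mesenchymal cells, which is 1.78%, and 142 were called lower, which is 1.54%. Every one of these had an interval that left out 0, and the median over all ranked genes was 0.01. The gate and rule genes were kept out of these counts, but the cells compared were chosen from the same UMIs.

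Paralogues of the selecting genes were higher in the Msx1 Alx1 cells. *Msx2*, the paralogue of *Msx1* and likewise a BMP target, was at 93.5 CPM (79.1 to 110) against 25.5 CPM, a log2 ratio of 1.54 (1.32 to 1.77). *Alx4*, a homeobox gene of the same family as *Alx1*, was at 93.5 CPM against 42.3 CPM, a log2 ratio of 0.98 (0.76 to 1.20). Both were called higher, and *Msx3* had no UMI in the Msx1 Alx1 cells. The label of distal mesenchyme rested on *Msx1*, *Alx1* and *Msx2*, and *Msx2* was the marker among them that the rule had not used. *Msx2* was not particular to these cells. It was at 72.7 CPM in the 594 cells with *Msx1* and no other rule gene, and was not called against them.

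As shares of cells, *Msx2* was detected in 48.3% of Msx1 Alx1 cells and 12.8% of the others, and after thinning to 2000 UMIs in 20.5% and 4.90%. In 54 endothelial cells of the same matrix, with a median of 8405 UMIs, *Msx2* had no UMI, which with 3 counts as the floor allows a share of up to 5.56% of cells with a UMI.

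**Figure D1:**
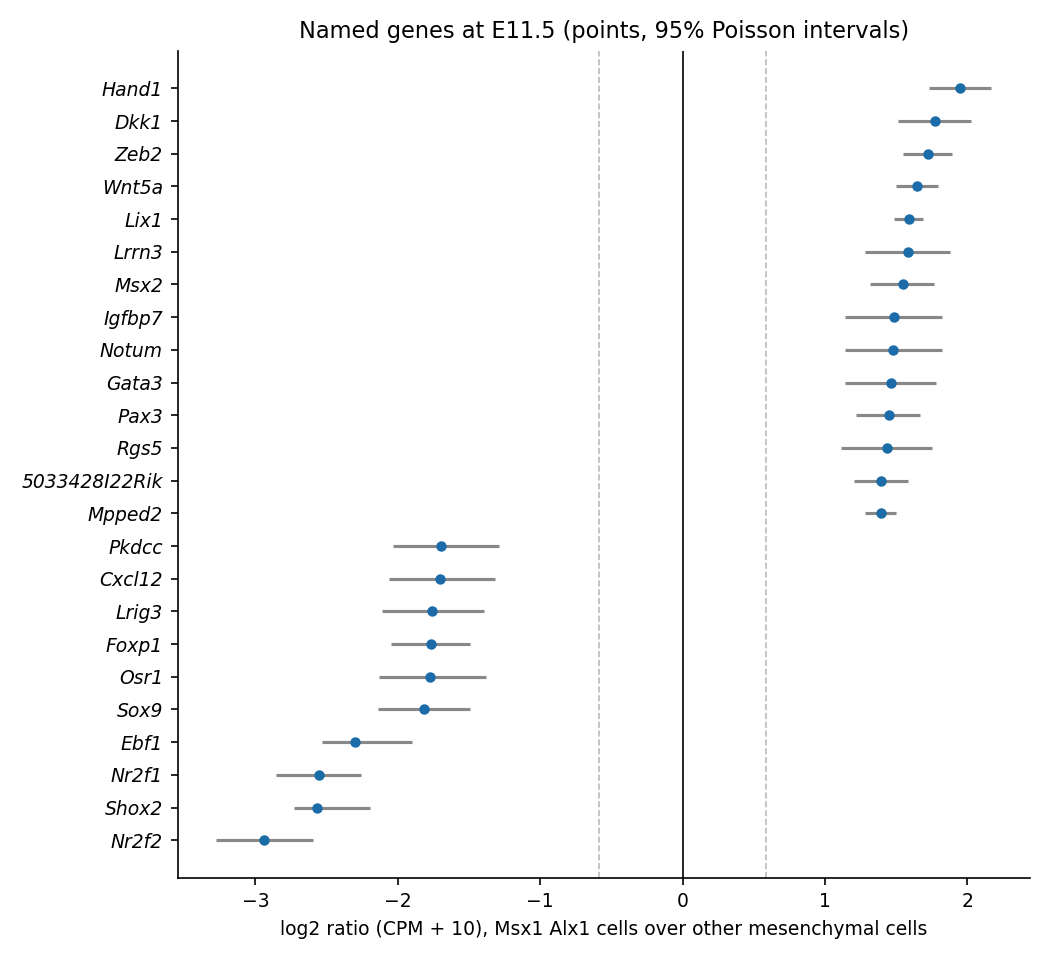
Log2 ratio (CPM with 10 added) of the Msx1 Alx1 cells over the other mesenchymal cells for 14 of the highest and the 10 lowest ranked genes. Points are ratios and bars 95% counting intervals. *Hand1* lies at 1.95 and *Nr2f2* at -2.94, and the dashed lines mark the 1.5-fold bound.

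Factors of the distal jaw were higher in part. Of 8 such genes described here, all ranked, 4 were called higher (*Hand1*, *Hand2*, *Tbx3* and *Prrx2*) and none lower, with a median log2 ratio of 0.67 beside 0.01 over all ranked genes. *Hand1*, a basic helix-loop-helix factor of the ventral arch midline, was at 102 CPM (86.6 to 119) against 18.9 CPM (17.6 to 20.3), a log2 ratio of 1.95 (1.73 to 2.17). *Hand1* UMIs were found in 40.7% of Msx1 Alx1 cells and 6.47% of the others, after thinning in 19.9% and 3.33%, and in none of the endothelial cells. *Hand2*, which acts downstream of endothelin in the arch, was at 306 CPM against 158 CPM, a log2 ratio of 0.91 (0.78 to 1.04). The long non-coding transcript *Hand2os1*, named as the opposite strand of *Hand2*, was at 342 CPM against 159 CPM, and whether counting used strand is not given in the sources used here. *Tbx3*, a T-box repressor, had a log2 ratio of 0.97 (0.79 to 1.16), and *Prrx2*, a paired-related homeobox gene, had 0.91 (0.76 to 1.05). *Foxf1*, a target of Hedgehog signalling, was at 13.3 CPM against 19.0 CPM with an interval that held 0.

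Taking *Alx4*, *Msx2*, *Hand1* and *Hand2* together, 8 Msx1 Alx1 cells had a UMI of none of them, 26 of 1, 64 of 2, 55 of 3 and 19 of all 4. Among the other mesenchymal cells 46.3% had none and 1.16% had all 4. Most Msx1 Alx1 cells thus carried 2 or more of these transcripts, although the combination varied from cell to cell.

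The list of proximal jaw factors, which also holds genes of the whole arch, was mixed. Of its 17 genes 14 were ranked, 6 of these were called lower (*Dlx1*, *Dlx2*, *Dlx3*, *Gsc*, *Emx2* and *Pitx1*) and 1 higher (*Lhx8*), with a median log2 ratio of -0.47. *Dlx3* was at -0.15 when cells were thinned before they were chosen, where 6 genes of the list were called lower. With all cells thinned and classes kept, 4 genes of the list were called lower. *Pitx1*, a homeobox gene of mandible and hindlimb, was at 60.03 CPM (48.6 to 73.4) against 205 CPM, a log2 ratio of -1.62 (-1.88 to -1.36). *Dlx1* was at 5.69 CPM against 37.9 CPM (-1.61) and *Dlx2* at 13.3 CPM against 39.0 CPM (-1.08), both being distal-less genes expressed along the whole arch. *Dlx5* and *Dlx6*, the distal-less pair that sets ventral identity, were close to level, with log2 ratios of -0.13 (-0.35 to 0.09) and 0.00 (-0.26 to 0.25). *Gsc*, a homeobox gene of arch mesenchyme, was at 29.7 CPM against 108 CPM (-1.58). *Lhx8*, a LIM homeobox gene of tooth and oral mesenchyme, was at 126 CPM against 75.4 CPM (0.67), but at -0.037 when cells were thinned to 2000 UMIs before they were chosen. None of the 8 *Hox* genes on the list was ranked and none had a UMI in the Msx1 Alx1 cells, and the jaw-forming arch is known to lack *Hox* expression.

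The lowest genes included several transcription factors outside these lists. *Nr2f2*, an orphan nuclear receptor of the COUP-TF type, was at 22.8 CPM (15.9 to 31.5) against 241 CPM, a log2 ratio of -2.94 (-3.28 to -2.59). Its paralogue *Nr2f1* was at 37.9 CPM against 272 CPM (-2.56), and 17 of its 60 UMIs came from a single cell. *Shox2*, a homeobox gene of the palate and limb, had 2 UMIs in the Msx1 Alx1 cells, at 1.26 CPM (0.15 to 4.57) against 56.9 CPM. *Ebf1* had 4 UMIs at 2.53 CPM against 51.7 CPM (-2.30). *Osr1*, *Foxp1*, *Lrig3*, *Cxcl12* and *Pkdcc* were also among the 10 lowest, with log2 ratios from -1.77 to -1.69, as was *Sox9*, described with the cartilage genes.

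Other genes among the 15 highest were of several kinds. *Lix1* was at 511 CPM against 163 CPM (1.59), *Mpped2* at 444 CPM against 163 CPM (1.39) and *Lrrn3* at 41.1 CPM against 7.07 CPM (1.58). *Pax3*, a paired-box gene of early neural crest, was at 92.3 CPM against 27.5 CPM (1.45), or 0.25 when cells were thinned before they were chosen, and *Gata3*, a zinc-finger factor of the arches, at 32.9 CPM against 5.54 CPM (1.46). *Igfbp7*, which encodes an insulin-like growth factor binding protein, was at 24.0 CPM against 2.18 CPM (1.48). *5033428I22Rik*, a non-coding transcript near *Hand2* on chromosome 8, was at 142 CPM against 47.6 CPM (1.40).

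RefSeq windows of 300 bases around the start of each gene were found for 16 of the 25 highest and lowest genes, *Hand1* not among them. They were searched on both strands for 3 words of 6 bases. TAATTA, the homeodomain core word and its own reverse complement, was in 1 of 8 windows of the higher genes, in 0 of 8 of the lower genes and in 5.31% of 27025 promoters. CATCTG, an E-box of the kind bound by basic helix-loop-helix factors, was in 1 of 8 and 1 of 8, against 17.2%. CTTTGA, the TCF/LEF word, was in 2 of 8 and 4 of 8, against 16.2%. The windows of the paralogue *Msx2* (chr13:53472731-53473030, minus strand), of the Wnt antagonist *Dkk1* (chr19:30549447-30549746, minus strand) and of the lowest gene *Nr2f2* (chr7:70366697-70366996, minus strand) are shown as examples, with matches in capitals, TAATTA in *Msx2* and CTTTGA or its reverse complement in *Dkk1* and *Nr2f2* (GRCm38.p6, 5' to 3').
Msx2: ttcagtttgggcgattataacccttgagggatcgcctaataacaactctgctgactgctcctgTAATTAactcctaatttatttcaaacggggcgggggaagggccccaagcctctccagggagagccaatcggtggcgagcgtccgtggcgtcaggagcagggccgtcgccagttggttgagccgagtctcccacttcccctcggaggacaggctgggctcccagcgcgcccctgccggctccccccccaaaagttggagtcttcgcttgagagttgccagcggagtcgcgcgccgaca
Dkk1: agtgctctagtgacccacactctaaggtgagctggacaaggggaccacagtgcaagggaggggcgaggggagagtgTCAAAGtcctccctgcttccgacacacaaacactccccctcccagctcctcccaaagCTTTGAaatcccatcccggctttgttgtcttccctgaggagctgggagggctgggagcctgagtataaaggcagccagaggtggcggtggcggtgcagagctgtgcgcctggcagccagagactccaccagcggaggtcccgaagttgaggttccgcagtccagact
Nr2f2: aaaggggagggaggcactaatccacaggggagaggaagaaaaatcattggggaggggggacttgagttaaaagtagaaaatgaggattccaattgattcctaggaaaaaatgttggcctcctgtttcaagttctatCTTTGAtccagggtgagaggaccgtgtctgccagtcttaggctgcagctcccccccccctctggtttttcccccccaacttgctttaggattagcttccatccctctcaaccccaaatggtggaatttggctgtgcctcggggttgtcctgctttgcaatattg

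A match in these windows is a description of the letters, and binding was not measured.

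BMP signalling genes differed by role, with called genes among the ligands, antagonists and targets and none of 6 ranked receptors called higher. *Bmp4*, the ligand that induces *Msx* genes in jaw mesenchyme, was at 45.5 CPM (35.6 to 57.3) against 11.7 CPM, a log2 ratio of 1.36 (1.06 to 1.64), and of the 8 ligands on the list only it and *Bmp2* were ranked. Of 6 ranked BMP targets, 4 were called higher, and none lower, with a median of 0.63. *Smad7*, an intracellular inhibitor of the pathway, was at 141 CPM against 53.5 CPM (1.25), and *Id1*, *Id2* and *Id3*, which encode inhibitors of helix-loop-helix factors, had log2 ratios of 0.68, 0.70 and 0.59. *Id3* lay just above the 1.5-fold bound and was at 0.52 by the mean of per-cell CPM, which left 3 targets called. Of the extracellular and membrane antagonists 3 of 5 ranked genes were called higher. *Bambi*, a pseudoreceptor, was at 100.5 CPM against 35.7 CPM (1.27), *Sostdc1* at 43.0 CPM against 18.5 CPM (0.89) and *Grem1* at 9.48 CPM against 0.990 CPM (0.83), although *Grem1* was at -0.19 when cells were thinned before they were chosen. The receptors were close to level except *Bmpr1b*, at 7.58 CPM against 24.3 CPM (-0.97).

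In the Wnt pathway the ligand *Wnt5a*, which signals mainly without beta-catenin and drives outgrowth, was at 249 CPM (225 to 275) against 72.6 CPM, a log2 ratio of 1.65 (1.5 to 1.79). *Dkk1*, a secreted antagonist of beta-catenin signalling, was at 64.5 CPM (52.6 to 78.2) against 11.8 CPM (1.77), while the antagonists *Sfrp1* (-0.61) and *Sfrp2* (-0.84) were called lower. Of 11 ranked response genes, 5 were called higher and none lower, with a median of 0.37. *Notum*, which encodes a Wnt-inactivating esterase, was at 23.4 CPM against 1.98 CPM (1.48). *Nkd1* had a log2 ratio of 1.03, *Tcf7* of 1.01 and *Lef1* of 0.75. *Lgr5*, named after its value was seen, had 0.63, whereas *Axin2*, likewise, had 0.29 (0.09 to 0.48) and was not called. With all cells thinned to 2000 UMIs 1 Wnt response gene was called, where a call also needs a gene to be ranked at that depth. By ratio alone, *Lef1* (0.36) was the one of the 5 that fell short of the bound with classes kept. When cells were thinned before they were chosen, *Lef1* (0.57) and *Nkd1* (0.43) fell short, and *Sfrp2* was at 0.038.

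Other pathways were mixed. In the FGF response list 1 of 9 ranked genes was called higher, *Etv4* at 20.9 CPM against 8.86 CPM (0.71), which turned to -0.51 with all cells thinned, and the median of the list was 0.07. The Hedgehog list had 1 of 9 called, *Foxd1* lower (-0.88), with 22 of its 60 UMIs in 1 cell, and *Gli1*, a direct target, at 0.25 (-0.10 to 0.61). None of 5 ranked endothelin genes was called, the receptor *Ednra* being at 114 CPM against 79.9 CPM (0.46). Of 9 ranked retinoic acid genes only *Aldh1a2*, which makes the ligand, was called, at 1.26 CPM against 11.1 CPM. *Epha3*, a guidance receptor, was the one of 9 ranked Eph and ephrin genes called, at -1.05. Of 6 ranked semaphorin pathway genes 4 were called, *Nrp2* (0.99) and *Sema5a* (0.62) higher and *Nrp1* (-1.30) and *Plxna2* (-1.50) lower. *Sema5a* was at 0.16 with *Cited1* allowed and 0.31 when cells were thinned before they were chosen, and *Nrp1* at -0.50 in the latter.

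**Figure D2:**
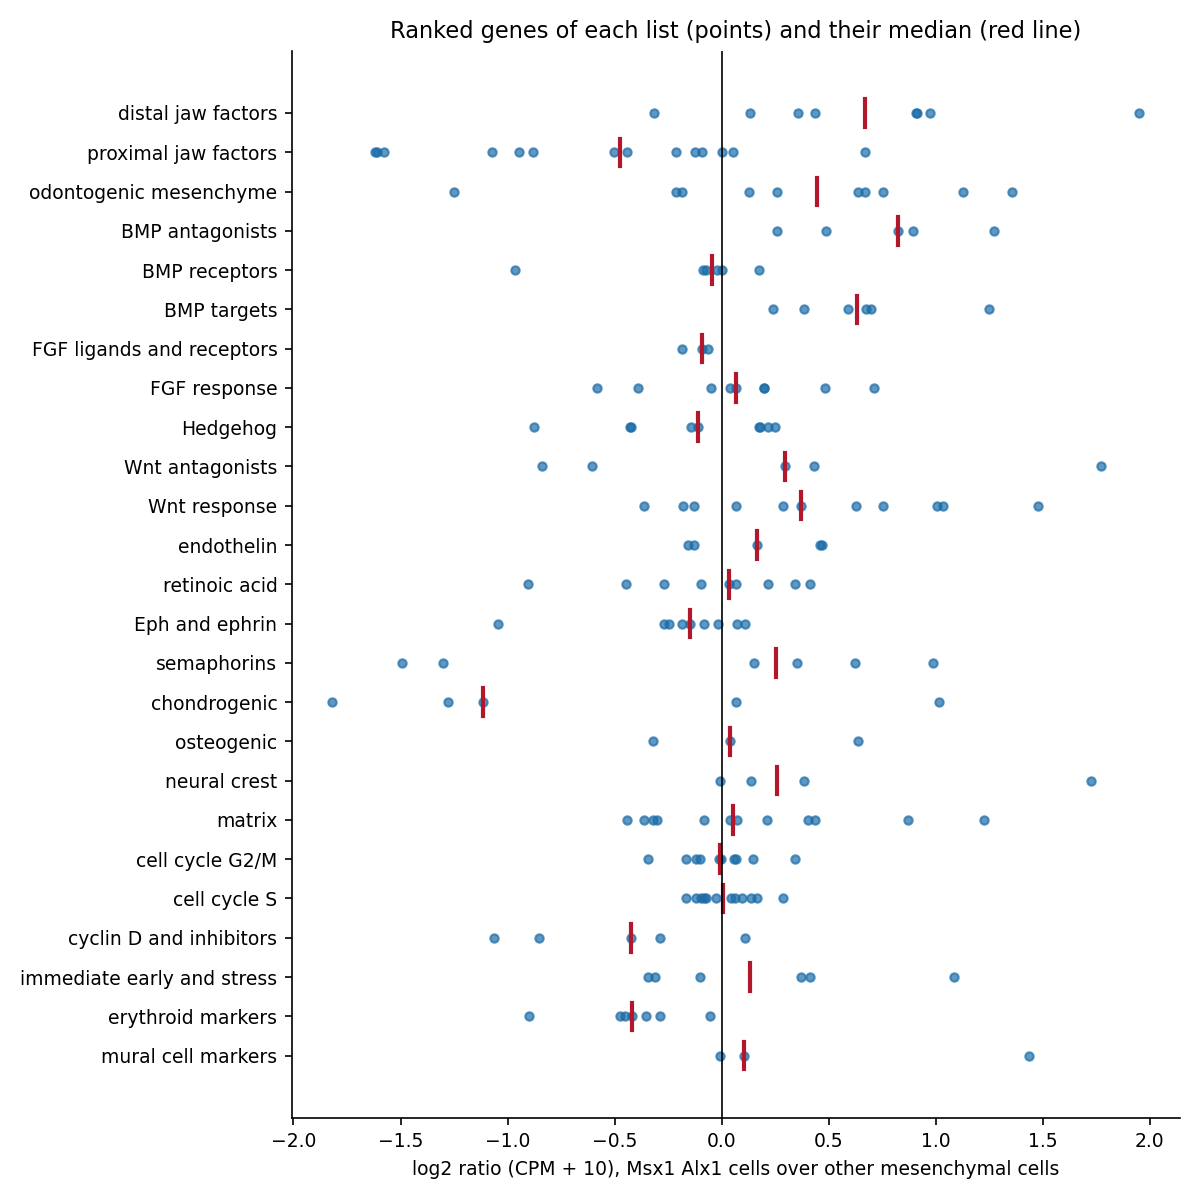
Log2 ratio (CPM with 10 added) of the Msx1 Alx1 cells over the other mesenchymal cells for each ranked gene (points) of the lists with at least 3 ranked genes. Red lines are list medians. Distal jaw factors have a median of 0.67, BMP targets 0.63 and chondrogenic genes -1.11, and both cell cycle lists lie near 0.

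Genes of skeletal and tooth fate split. *Sox9*, the master factor of cartilage, was at 29.1 CPM (21.3 to 38.8) against 128 CPM (-1.82), and its cartilage collagen targets *Col2a1* (-1.11) and *Col9a1* (-1.28) were called lower too. *Sox6*, a partner of *Sox9*, was called higher (1.02), so that 3 of 5 ranked chondrogenic genes were lower and 1 higher. *Runx2*, the bone master factor also used in tooth mesenchyme, was at 22.8 CPM against 11.1 CPM (0.64), but at -0.33 when cells were thinned before they were chosen. On the odontogenic list 5 of 10 ranked genes were called higher (*Lhx8*, *Runx2*, *Inhba*, *Bmp4* and *Lef1*). *Osr2*, which restricts the tooth field, was called lower at 1.90 CPM against 18.3 CPM (-1.25). When cells were thinned before they were chosen, *Lhx8* (-0.037), *Runx2* and *Lef1* (0.57) were no longer called. With *Cited1* allowed they were at 0.33, 0.32 and 0.47, also short of the 1.5-fold bound. *Inhba*, which encodes an activin subunit of early tooth mesenchyme, was at 19.6 CPM against 3.56 CPM (1.12). *Pax9*, an early tooth marker, was at 21.5 CPM against 18.8 CPM (0.13). The proteoglycans *Lum* (1.23) and *Dcn* (0.87) were the called members of 12 ranked matrix genes.

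*Zeb2*, a zinc-finger repressor of migrating neural crest, was at 175 CPM (155 to 197) against 46.0 CPM (1.72). Immune cells also express it. The 6 immune markers summed to 0.632 CPM in the Msx1 Alx1 cells and 0.643 CPM in the others, with 5 of the 6 at 0 in the former. The gate had already limited the immune genes *Tyrobp* and *Fcer1g* in both classes, so low immune markers were in part set by it. The source of the *Zeb2* difference was not tested. *Zeb2* was the one of 4 ranked genes on the neural crest list of 8 that was called, with *Snai1* at 0.38 and *Ets1* at -0.01. *Pax3*, which is not on that list, is described above.

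Cell cycle genes differed little by the summed lists. The 10 genes of G2/M summed to 3871 CPM against 4020 CPM, a log2 ratio of -0.05 (-0.09 to -0.02), and the 12 genes of S phase to 1735 CPM against 1697 CPM, and none of the 22 was called. *Ccnd2*, a D-type cyclin, was at 274 CPM against 583 CPM (-1.06), and *Cdkn1c*, an inhibitor of cyclin-dependent kinases, at 524 CPM against 954 CPM (-0.85), but at -0.24 when cells were thinned before they were chosen and at -0.51 with *Cited1* allowed in the rule. *Fos* was the called gene of 6 ranked immediate early and stress genes, at 45.5 CPM against 16.2 CPM (1.08).

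Markers of epithelium and muscle were at or near 0, whereas erythroid and mural markers were present. The 8 epithelium markers summed to 0.632 CPM with 7 at 0 and *Krt18* the remaining one. The 8 muscle markers summed to 2.53 CPM with 7 at 0, and the 6 endothelium markers to 13.3 CPM against 12.3 CPM in the other cells, of which *Egfl7* gave 12.01 CPM. Glia and neuron markers summed to 23.4 CPM against 20.2 CPM. Among mural markers *Rgs5* was at 31.6 CPM against 5.39 CPM (1.43), or -0.036 when cells were thinned before they were chosen, while *Pdgfrb* was at 53.1 CPM against 48.6 CPM and *Kcnj8* was at 0, and the 6 genes summed to 116 CPM against 83.1 CPM. Haemoglobin transcripts, as in the whole matrix, were present at 1582 CPM against 2037 CPM, and 516 of the 1261 *Hbb-y* UMIs came from 1 cell. Their part in the other results was not tested.

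Neighbouring classes of the same matrix were compared with the same 172 cells, so that these comparisons are not independent of each other. Barx1 cells (1900) had *Barx1* without *Cited1* and *Alx1*, Cited1 cells (577) had *Cited1* without *Barx1* and *Alx1*, and Msx1-only cells (594) had *Msx1* without the other rule genes, with median UMIs of 6500, 5547 and 5628.

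Against Barx1 cells, 213 of 9180 ranked genes were called higher in the Msx1 Alx1 cells, 2.32%, and 191 lower, 2.08%. *Hand1* was at 1.40 CPM in the Barx1 cells, with a log2 ratio of 3.29 (3.07 to 3.51). *5033428I22Rik* had 2.75, *Hand2os1* with 2.67 and *Dkk1* with 2.56. *Hand2* (2.18), *Alx4* (1.91) and *Msx2* (2.29) were higher too. *Shox2*, at 109 CPM in Barx1 cells, had a ratio of -3.41, *Nr2f2* of -3.32, *Nr2f1* of -2.90, *Ebf1* of -2.80 and *Sox9* of -2.31. Of 14 ranked genes of the proximal list, which also holds genes of the whole arch, none was called higher. The 7 called lower were *Dlx1*, *Dlx2*, *Dlx3*, *Gsc*, *Emx2*, *Lhx6* and *Pitx1*. Of 7 ranked distal factors described here 4 were called higher.

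Against Cited1 cells, 144 of 7979 ranked genes were called higher, 1.8%, and 168 lower, 2.11%. *Lix1* (1.71), *Zeb2* (1.63), *Tbx3* (1.63) and *Cdh6* (1.60) were among the highest. *Hand1* was at 31.1 CPM in the Cited1 cells, with a ratio of 1.44 (1.16 to 1.73). *Hand2* (0.24) was not called. Of 7 ranked distal factors described here 4 were called higher and 2 lower (*Foxf1* and *Foxf2*), and of 5 ranked BMP targets *Smad7* alone was called. Haemoglobin transcripts summed to 1582 CPM against 2498 CPM, with 5 of 7 genes called lower, and their part in the other values was not tested. *Ebf2* had no UMI in the Msx1 Alx1 cells and was at 43.1 CPM in the Cited1 cells, so that it was at least 22.7-fold lower when 3 counts are taken as the floor. *Nr2f2* (-2.27), *Foxp1* (-2.19), *Nrk* (-1.97) and *Cavin2* (-1.91) completed the lowest. Of 12 ranked genes of the proximal list 5 were called lower, among them *Gsc* (-1.80) and *Meis2* (-1.04), and *Lhx8* was called higher.

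Msx1-only cells differed from the Msx1 Alx1 cells by the rule in *Alx1* alone, and 103 of 7904 ranked genes were called higher, 1.3%, and 79 lower, 0.999%. *Hand1* (2.34), *Plagl1* (1.78), *Rgs5* (1.76) and *Igfbp7* (1.30) were among the highest. *Alx4* (0.81) and *Hand2* (0.75) were called higher, and *Hand1* and *Hand2* were the called ones of 5 ranked distal factors described here. *Msx2* was not, at 93.5 CPM against 72.7 CPM (0.32), and *Pax3* was not either, at 92.3 CPM against 112 CPM (-0.26). *Pcdh10* (-1.49), *Nr2f2* (-1.45), *Nr2f1* (-1.34), *Pitx1* (-1.33) and *Dlx1* (-1.26) were the lowest. The BMP targets *Id1*, *Id2* and *Id3* were close to level, with ratios of 0.25, 0.09 and 0.03, while *Bmp4* (0.63) and *Smad7* (0.77) were called.

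The 202 cells that carried *Msx1*, *Alx1* and *Cited1* without *Barx1* were close to the Msx1 Alx1 cells for some genes and apart from them for others. *Msx2* was at 82.7 CPM in them and *Nr2f2* at 23.6 CPM, each near the values of 93.5 and 22.8 CPM in the Msx1 Alx1 cells. *Hand1* was higher in them, at 148 CPM (133 to 165), and *Wnt5a* lower, at 178 CPM. *Foxp1* was detected in 59.9% of them and 26.7% of the Msx1 Alx1 cells, after thinning in 27.2% and 8.77%, and *Notum* in 4.46% and 16.3%. *Plagl1*, an imprinted zinc-finger gene, was at 239 CPM in them, at 102 CPM in the Msx1 Alx1 cells and at 255 CPM in the Cited1 cells.

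**Figure D3:**
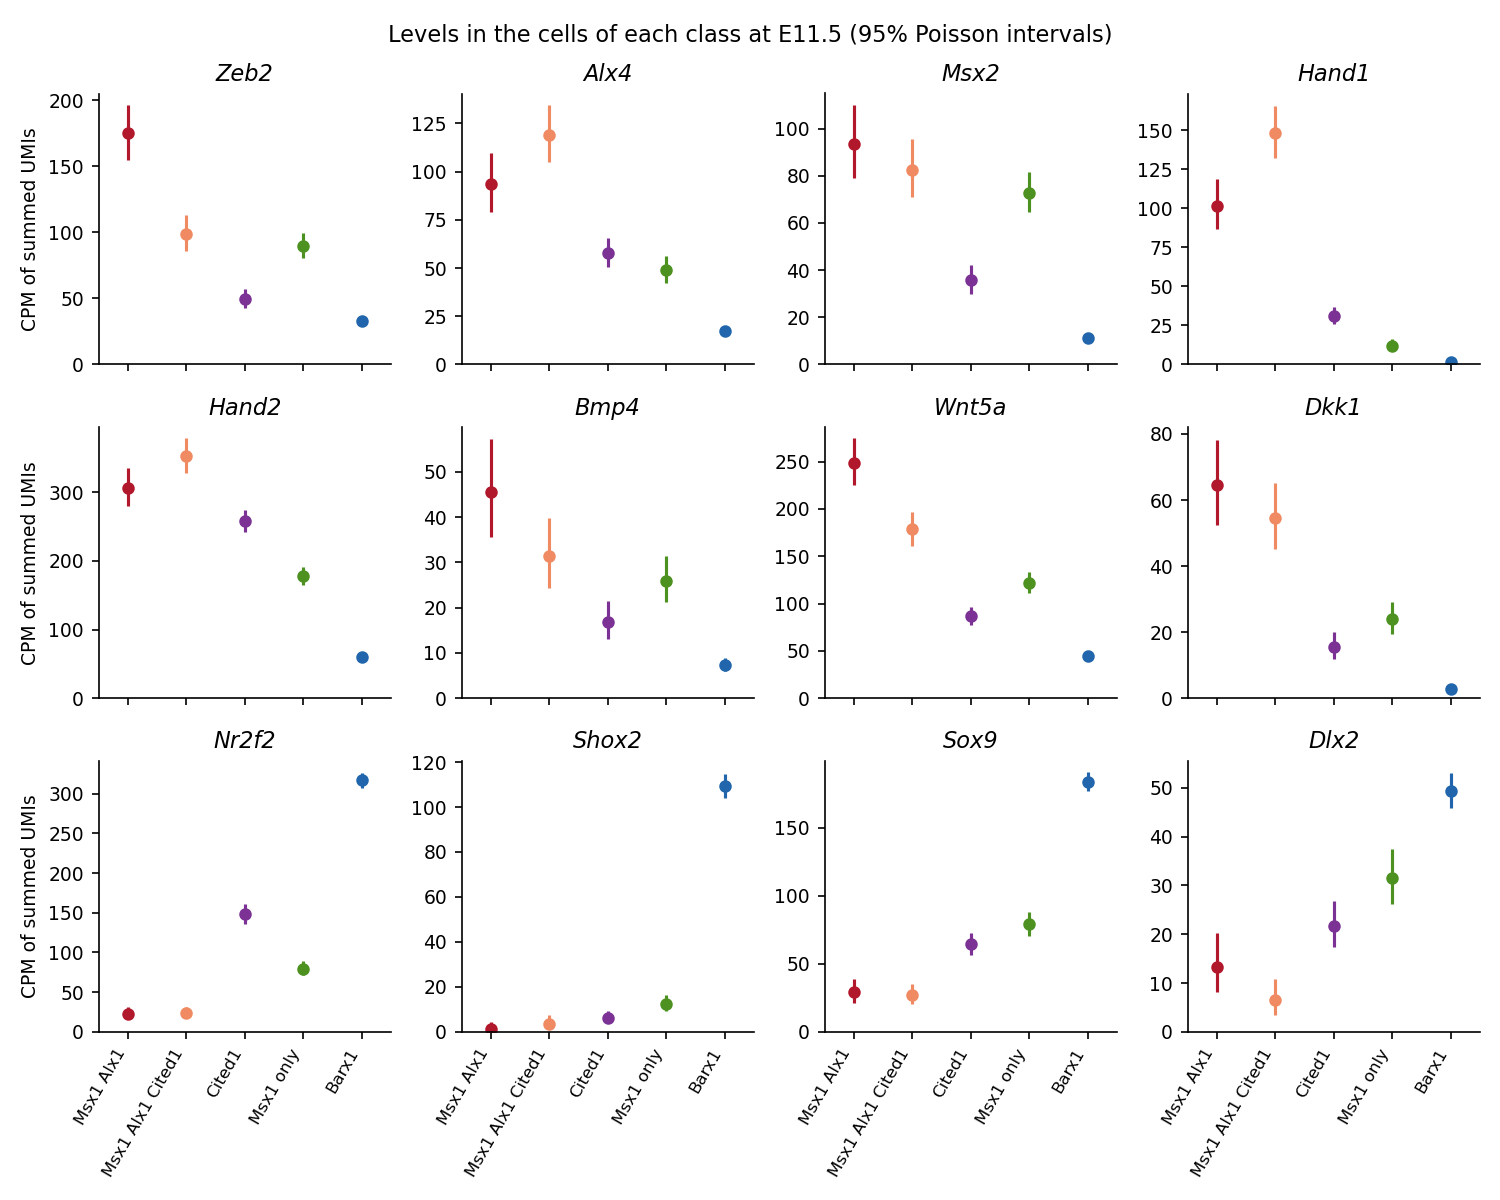
CPM of summed UMIs of 12 genes in 5 classes of E11.5 mesenchymal cells (points, 95% Poisson intervals; each panel starts at 0). *Hand1* is at 102 CPM in the Msx1 Alx1 cells and 1.40 CPM in the Barx1 cells, and *Nr2f2* rises from 22.8 to 317 CPM.

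The values just inside and outside the threshold are given with no test. Among cells with *Msx1* and without *Barx1* and *Cited1*, *Hand1* was at 12.1 CPM in the 594 cells with 0 *Alx1* UMIs, 67.9 CPM in the 86 cells with 1, 83.3 CPM in the 40 cells with 2 and 177 CPM in the 46 cells with 3 or more. *Nr2f2* was at 79.7, 21.4, 11.49 and 34.1 CPM in the same order. *Pitx1* was at 166, 95.6, 14.4 and 31.8 CPM. Median depth was 5628, 6604, 6685 and 8308 UMIs, and cells with 1 *Alx1* UMI already stood apart from those with 0 for *Hand1*. *Msx2* stayed between 72.7 and 118 CPM over the 4 groups. Along *Msx1*, in cells with *Alx1* and without *Barx1* and *Cited1*, *Hand1* was at 165 CPM in the 31 cells with 0 *Msx1* UMIs, 170.3 CPM in the 44 cells with 1 to 2, 157 CPM in the 53 cells with 3 to 5 and 61.6 CPM in the 75 cells with 6 or more. Median depth in these groups was 4445, 5455, 6195 and 10939 UMIs and *Alx1* was at 308, 298, 353 and 162 CPM, and the part of depth in the *Hand1* values was not tested. *Bmp4* was at 22.6, 24.8, 29.1 and 57.4 CPM in the same order.

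**Figure D4:**
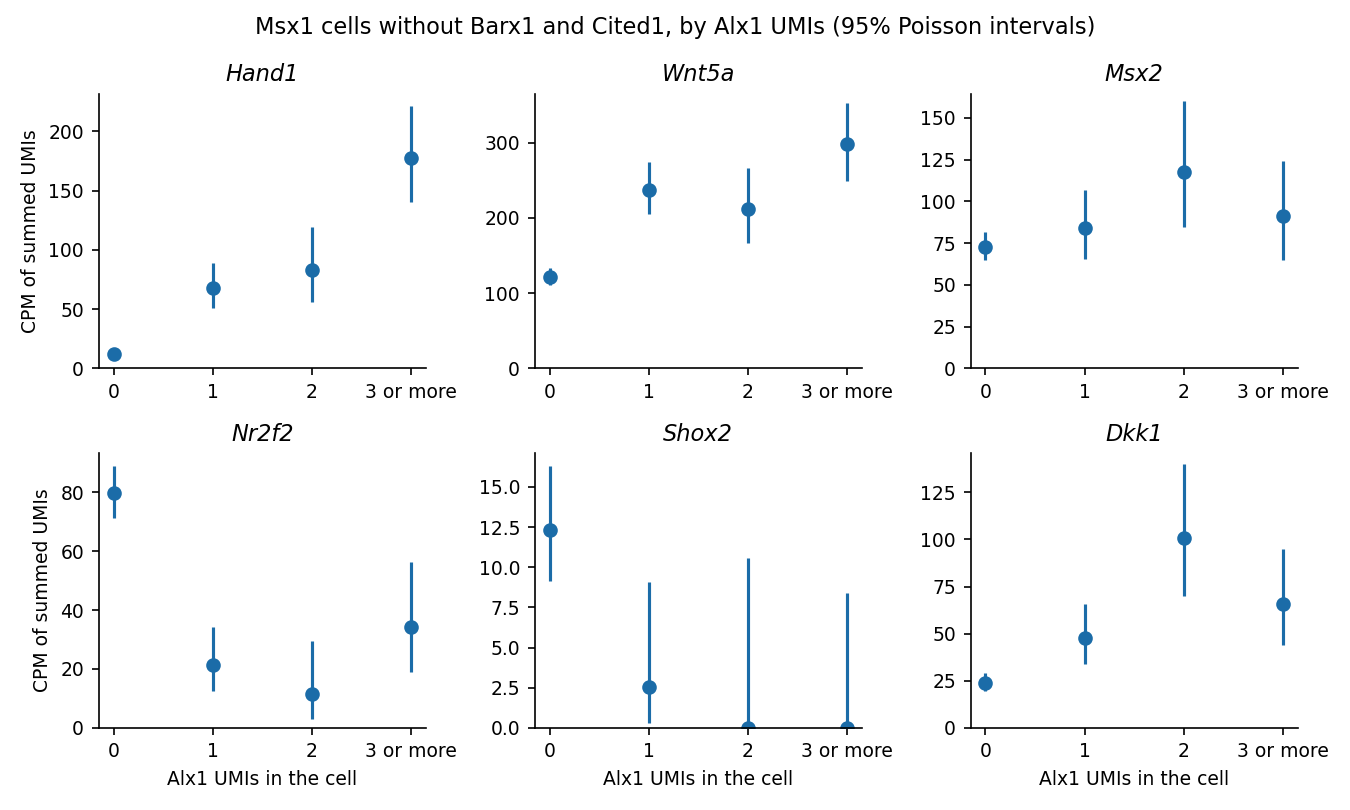
CPM of summed UMIs of 6 genes in E11.5 mesenchymal cells with *Msx1* and without *Barx1* and *Cited1*, by the number of *Alx1* UMIs in the cell (points, 95% Poisson intervals; each panel starts at 0). *Hand1* goes from 12.1 CPM at 0 UMIs to 67.9 CPM at 1 UMI, and *Nr2f2* from 79.7 to 21.4 CPM.

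Within the Msx1 Alx1 cells the transcripts did not all go together. The 70 cells with *Hand1* and the 102 without it had median depths of 6479 and 7175 UMIs. *Pax3* was detected in 24.3% of the cells with *Hand1* and 54.9% of those without, and *Dlx5* in 22.9% and 55.9%. *Hand2* was detected in 90.0% and 81.4%, and *Nr2f2* in 15.7% and 14.7%. These pairs were chosen after their values were seen.

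When all gated cells were clustered without 62 rule and listed patterning genes, 102 of the 172 Msx1 Alx1 cells (59.3%, 51.6 to 66.7) fell into cluster 5, which held 12.6% of the other mesenchymal cells. That cluster of 754 cells was led by *Pax3*, *Msx1*, *Cxcl14* and *Msx2*, with *Alx1* further down. A further 46 cells (26.7%) lay in cluster 2, led by *Ung* and *Shox2*, 12 in cluster 4, led by *Plagl1* and *Cited1*, 9 in cluster 3, 2 in cluster 1 and 1 in cluster 6. Cluster 3, with a median of 2230 UMIs, was led by *mt-Nd6* and had other mitochondrial genes among its leading ones. Haemoglobin genes led cluster 6. Cluster 2 held 25.6% of the other cells and cluster 1 held 28.1%. *Pax3*, *Shox2*, *Nr2f1*, *Sox9* and *Dkk1* were not among the genes left out. Nor were *Zeb2*, *Wnt5a*, *Nr2f2*, *Ebf1*, *Hist1h1b* and *Top2a*. Values of all these genes within a cluster cannot be taken as independent of it.

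**Figure D5:**
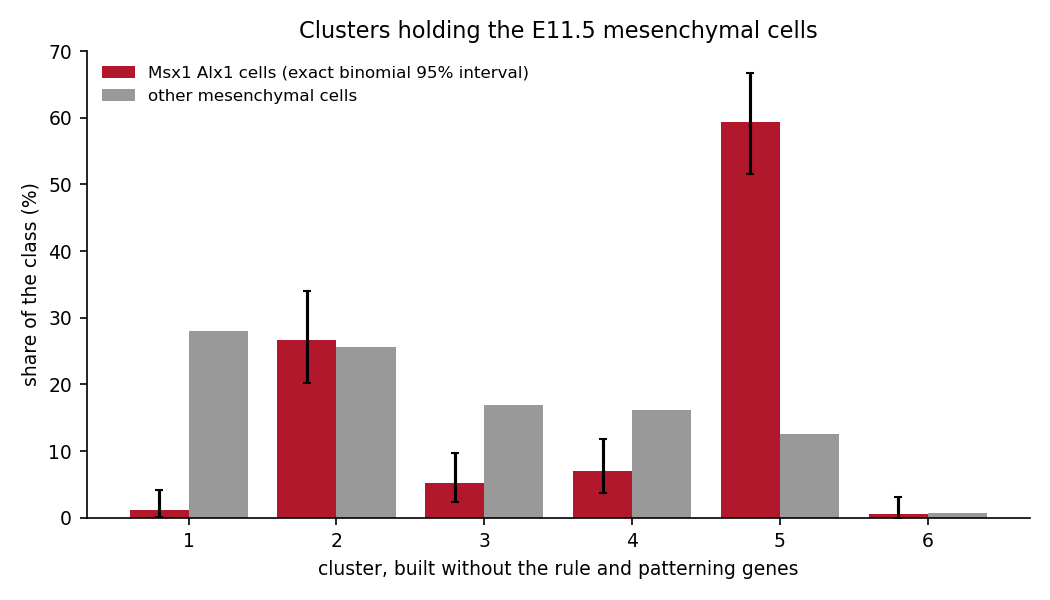
Share of the 172 Msx1 Alx1 cells (red, exact binomial 95% interval) and of the 5192 other mesenchymal cells (grey) in each of 6 clusters at E11.5. Cluster 5 holds 59.3% of the first and 12.6% of the second, and cluster 1 holds 1.16% and 28.1%.

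Cluster 5 held 652 other cells, among them 169 cells with *Msx1* and *Alx1* set aside for *Barx1* or *Cited1*. In the 102 Msx1 Alx1 cells of that cluster *Zeb2* was at 206 CPM against 85.0 CPM (1.19) in the others and *Wnt5a* at 264 CPM against 145 CPM (0.82). *Hand1* differed less there than over all cells, at 88.9 CPM against 53.9 CPM (0.63, 0.34 to 0.92), as did *Nr2f2*, at 20.5 CPM against 47.4 CPM (-0.91). *Hand2* (0.17), *Msx2* (0.27), *Alx4* (0.03) and *Pax3* (0.06) were not called, nor were *Shox2* (-0.44) and *Ebf1* (-0.41), whose intervals held 0. *Gsc* was at 27.6 CPM against 104 CPM (-1.60) and *Pitx1* at 62.3 CPM against 150.3 CPM (-1.15). In cluster 2 the 46 cells had *Hand1* at 77.9 CPM against 10.5 CPM (2.10), *Nr2f2* at 28.3 CPM against 253 CPM (-2.78) and *Pitx1* at 14.2 CPM against 188 CPM (-3.04). The Msx1 Alx1 cells of clusters 5 and 2 differed from each other in histone and mitotic genes among others, such as *Hist1h1b* at 752 CPM in cluster 5 and 106 CPM in cluster 2 (2.71) and *Top2a* at 1139 CPM and 269 CPM (2.04). The G2/M genes summed to 4317 CPM in cluster 5, against 4589 CPM in its other cells, and to 1749 CPM in cluster 2, against 2110 CPM, while the S phase genes summed to 1679 CPM and 1958 CPM in the Msx1 Alx1 cells of clusters 5 and 2, with median depths of 8526 and 5874 UMIs, and these histone and mitotic genes were named after their values were seen.

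The 25 highest and lowest genes of the E11.5 comparison were also read in the cells that met the rule at the later stages. Of 7500 ranked genes 39 were called higher at E14.5, 0.52%, and 41 lower, 0.547%, and of 9486 at E16.5 17 were called higher, 0.179%, and 41 lower, 0.432%. Of the 15 genes called higher at E11.5, 10 and 12 were ranked at these stages, 0 and 0 were called higher, and 1 and 3 were called lower. *Hand1* was near 0 in both classes, at 2.98 and 3.43 CPM at E14.5. *Wnt5a* was level, at 212 and 217 CPM at E14.5 and 194 and 192 CPM at E16.5. *Pax3* turned to the other side, at 48.1 CPM against 105 CPM at E14.5 (-0.98) and 5.67 CPM against 29.0 CPM at E16.5 (-1.32).

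Of the 10 genes called lower at E11.5, 8 were ranked at each later stage, 2 were called lower at E14.5 and 2 at E16.5. *Nr2f2* was lower at E16.5, at 10.3 CPM against 23.5 CPM (-0.72), and *Sox9* at E14.5, at 16.4 CPM against 36.0 CPM (-0.80). Each stage was treated as 1 sample, and the difference between stages was not tested.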

How the data were processed

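The E11.5 whole mandible and the E14.5 and E16.5 incisor germs were sequenced with 10x Genomics 3' v3 chemistry. The authors aligned reads with Cell Ranger 4.0.0 to mm10, per the labels, and the deposited UMI counts form 1 matrix for each stage. The E11.5 matrix summed to 49264075 UMIs, that of E14.5 to 31670249 and that of E16.5 to 42895059. There were 13 barcode sequences shared by the E11.5 and E14.5 matrices and 17 by the E11.5 and E16.5 matrices.

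Summed counts were scaled to CPM. Intervals were exact Poisson for levels, exact binomial for shares and derived from the Poisson limits for ratios. Named genes were the 15 largest and 10 smallest ratios against the other mesenchymal cells, the 5 largest and 5 smallest of each other comparison, patterning list genes, and up to 4 genes of each other list. Some items are not reported here. The cells and lists were chosen with earlier results of these data known. Clusters were built with sctransform 0.4.2, Seurat 5.3.0 and leidenbase 0.1.32 (R 4.3.3) on 2000 variable genes without 62 rule and patterning genes, 20 components and a resolution of 0.4. Other values used python 3.11.15, numpy 2.4.6 and scipy 1.17.1. Scrublet in scanpy 1.11.5 called 0 of 6573 cells doublets and so did not work, and leaving out the 5% highest scores took its place. The ranking was tested on simulated data. Alternatives varied cell filters, depth, the added CPM, filters on low genes, the fold and the rule.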

Additional observations from a re-analysis of the deposited data

Results flagged for a closer look

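Cells meeting the same rule were found in the later matrices, outside the main comparison at E11.5. At E14.5 there were 1127 such cells, 28.1% of 4014 gated cells, and at E16.5 there were 1221, 50.8% of 2406 gated cells. Those matrices held incisor germs and the E11.5 matrix whole mandibles, so stage and dissection cannot be told apart.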

How the results depend on the processing

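Each matrix pooled the samples of its stage and was treated as 1 sample, so the unknown spread between embryos limits every value. No paired analysis was possible because barcodes could not be assigned to samples, and leaving out a replicate was not possible for the same reason. Of the alternatives to the log2 ratios of named genes, 828 of 1106 stayed within the counting interval and 270 moved out of it. A further 8, all of genes called in the main comparison, reversed. A change of sign in a gene not called there was not counted as a reversal. The counts of genes called against other mesenchymal, Barx1, Cited1 and Msx1-only cells were 306, 404, 312 and 182. Thinning to 2000 UMIs with classes kept gave 535, 654 and 289 (others, Barx1, Msx1-only) and left 1 Wnt response gene called. Thinning before the rule left 76 member cells and gave 1281, 1058 and 564, with 1 Wnt response gene. Requiring 2 UMIs of *Msx1* and *Alx1* left 78 member cells and gave 557, 691, 474 and 414. Adding 1 CPM gave 912, 1107, 736 and 559. Adding 50 CPM gave 61, 104, 63 and 30, with 3 genes of the proximal list lower, 2 BMP targets and 0 Wnt response genes higher. A 2-fold bound gave 86, 143, 82 and 33, with 1 distal factor, 1 BMP target and 3 Wnt response genes higher. Allowing *Cited1*, chosen after seeing the data, gave 374 member cells and 184 genes against Cited1 cells. The share of cells in the cluster with most of them was 87.2% at a resolution of 0.2, where it also held 67.8% of the other cells, and 41.9% at 0.8, where it held 9.53%. With thinning before the rule, the log2 ratio of *Rgs5* turned to -0.036, *Lhx8* to -0.037, *Runx2* to -0.33, *Grem1* to -0.19, *Etv4* to -0.21 and *Sfrp2* to 0.038. In the same setting *Pax3* (0.25), *Dlx3* (-0.15), *Cdkn1c* (-0.24), *Nkd1* (0.43), *Lef1* (0.57), *Nrp1* (-0.50), *Sema5a* (0.31), *Nrk* (-0.39) and *Cavin2* (-0.21) kept their direction, but their ratios fell short of the 1.5-fold bound. By ratio alone 15 of 75 described genes lost the call there, and adding 50 CPM took it from 36. Allowing *Cited1* took it from 9, reading levels in held-out UMIs from 5 and the mean of per-cell CPM from 5. Thinning with classes kept took it from 5 and requiring 2 UMIs from 4. These counts take in the ratio only, whereas the list counts above also need a gene to be ranked. More described genes can therefore drop out of the lists than these counts show. *Sema5a* lost the call by ratio in all 7 of these settings. *Id3* lost it with 50 CPM added, by the mean of per-cell CPM (0.52), with at least 1000 genes a cell (0.58) and without the mitochondrial and haemoglobin clusters (0.58). *Etv4* was -0.51 with thinning and classes kept, and *Cavin2*, compared with all other mesenchymal cells, was 0.37 with *Cited1* allowed. For all these the cause was not tested. Genes below about 10 CPM in both classes rested on few UMIs at this depth.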
